A study of Mus musculus with 6 samples.

Results

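Protein tyrosine phosphatases remove phosphate from tyrosine and so oppose, or in some positions switch on, the kinases that carry cytokine signals in blood progenitors. The 10 genes described here encode 8 receptor-type phosphatases (Ptprc, Ptpra, Ptpre, Ptprj, Ptpro, Ptprk, Ptprf and Ptprs) and both cytosolic phosphatases with paired SH2 domains (Ptpn6 and Ptpn11). They were taken by gene symbol: a probe set, the group of short probes on an array that reports a transcript, was used where the platform annotation gave it exactly 1 gene symbol and that symbol was among the 10. This gave 31 of the 45037 probe sets tested, for 10 of 18193 genes. The genes were chosen on the log2 values of the GFP-positive against the GFP-negative arrays, which were known when they were proposed. Their values in that contrast are therefore a description, and no p-value is printed for any of them. Where a member is said to pass a threshold, that only places it within the whole-table fit and is no independent test.

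RNA came from sorted bone marrow cells of 6-week-old male mice of genotype Hes1 GFP/WT, in which 1 Hes1 allele carries green fluorescent protein as a reporter. All cells were lineage-negative, c-Kit-positive and Sca-1-negative, the surface phenotype of myeloerythroid progenitors, and both groups carry the reporter allele. The GFP-negative and the GFP-positive cells were each profiled on 3 Affymetrix arrays, from 5 ng of amplified RNA per sample. The labels do not say whether arrays come from separate animals or from pools, so the spread between arrays may be technical.

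Receptor phosphatases hold their catalytic domains inside the cell and bind other cells, matrix or soluble ligands outside it. Ptprc encodes CD45, which is found on nearly all nucleated blood cells and removes an inhibitory phosphate from Src family kinases. Ptpn6 (SHP-1) and Ptpn11 (SHP-2) are drawn by their SH2 domains to phosphorylated receptors and adaptors, where SHP-1 mostly damps signalling and SHP-2 mostly promotes activation of Ras.

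The arrays were compared as log2 intensity. Median intensity per array lay between 63.7 and 64.9 in GFP-negative and between 59.9 and 62.1 in GFP-positive arrays, lower in all 3. Array pairs correlated across probe sets at 0.989 to 0.993 within a group and at 0.973 to 0.979 between groups. Hes1, whose reporter was used for the sort, lay between 5.74 and 6.01 in GFP-negative and between 7.12 and 7.20 in GFP-positive arrays, higher in all 3. Jchain, which encodes the immunoglobulin joining chain, stood at 8.85 in GFP-negative array 3 and 8.65 in GFP-positive array 1. It lay between 3.64 and 4.08 in the other 4 arrays, so calls were also made without these 2 Jchain-high arrays. A call here means an adjusted p under 0.05 in a limma fit over the whole table (Benjamini-Hochberg).

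Promoter sequence is shown for the genes with a called probe set whose RefSeq window ends at the outermost start of the gene, and for Ptpn11, the partner of Ptpn6 that was not called. Each window is the 250 bases before the start in assembly GRCm38.p6, 5′ to 3′ on the strand of the gene. Capitals mark the motifs searched on both strands, which were GAGGAA and GGAAGT (cores bound by ETS factors, whose last and first 4 letters can overlap), AGATAA (bound by GATA factors) and GTGGGAA (bound by RBPJ, the DNA-binding partner of Notch).
Ptpre (chr7:135537574-135537823, plus strand): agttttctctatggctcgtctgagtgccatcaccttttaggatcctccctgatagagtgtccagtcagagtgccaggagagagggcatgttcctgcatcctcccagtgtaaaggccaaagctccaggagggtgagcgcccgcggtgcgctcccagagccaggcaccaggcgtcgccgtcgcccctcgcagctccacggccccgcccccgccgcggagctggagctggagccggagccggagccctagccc
Ptpro (chr6:137252049-137252298, plus strand): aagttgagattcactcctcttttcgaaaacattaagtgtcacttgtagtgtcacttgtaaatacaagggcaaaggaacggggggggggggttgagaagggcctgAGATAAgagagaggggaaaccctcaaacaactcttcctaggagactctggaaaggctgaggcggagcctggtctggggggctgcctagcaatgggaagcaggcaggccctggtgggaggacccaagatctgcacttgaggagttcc
Ptpn6 (chr6:124738710-124738959, minus strand): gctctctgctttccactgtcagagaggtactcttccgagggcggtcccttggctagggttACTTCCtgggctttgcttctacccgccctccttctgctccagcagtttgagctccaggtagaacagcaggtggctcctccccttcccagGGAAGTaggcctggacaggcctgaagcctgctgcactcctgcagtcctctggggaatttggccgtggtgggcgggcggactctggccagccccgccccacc
Ptpn11 (chr5:121191398-121191647, minus strand): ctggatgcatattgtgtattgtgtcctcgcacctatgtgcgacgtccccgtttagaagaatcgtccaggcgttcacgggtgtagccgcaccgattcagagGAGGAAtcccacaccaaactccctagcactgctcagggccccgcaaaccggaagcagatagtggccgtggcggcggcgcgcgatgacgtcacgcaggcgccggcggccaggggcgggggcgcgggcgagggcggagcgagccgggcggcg

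The windows of all 10 genes matched RefSeq, with 15 windows in all because some genes have several starts. GAGGAA was found in 8 of the 15 windows, from 7 genes, and in 23.3% of 32851 windows in the RefSeq table. GGAAGT was found in 4, from Ptprc, Ptpre and Ptpn6, and in 19.7% of all windows. The Ptprc windows overlap, and a GGAAGT match in their shared bases counts in both. AGATAA was found in 3 windows, from Ptprc, Ptpre and Ptpro, and in 9.99% of all windows. GTGGGAA was in none of the 15 and in 5.42% of all windows. Among the windows printed, that of Ptpn6 holds GGAAGT at 2 places, that of Ptpro AGATAA once and that of Ptpn11 GAGGAA once, while the Ptpre window at its outermost start holds none of the 4 motifs. A match describes letters in a window and does not show that a factor binds there. Which start each gene uses in these cells was not examined, so a printed window may not be the promoter in use.

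Across the 31 probe sets, 6 were called lower in GFP-positive arrays and 0 higher. Over all probe sets tested, 14% were called in either direction, 7.66% lower and 6.35% higher, so that 45.3% of calls were higher (61.5% with array medians subtracted). Since the genes were chosen with this contrast known, nothing is read from the members' share. At an unadjusted p under 0.05, 10 member probe sets were lower and 3 higher, where 13.3% and 18.2% of all probe sets were. The 6 calls came from Ptprc (2 of 2 probe sets), Ptpre (2 of 2), Ptpro (1 of 2) and Ptpn6 (1 of 2). The median difference over the 31 was 0.11 on the log2 scale, against 0.09 over all probe sets. Counting each gene by its brightest probe set, 4 of 10 were lower and the median was -0.41, against 9.92% of all genes called lower and a median of 0.11. The 2 medians differ in sign, and the dimmer probe sets of Ptprk, Ptprj, Ptprf and Ptprs lay mostly above 0. The arrays of the 2 groups did not overlap for 14 member probe sets, against 38.5% of all probe sets. Of the 14, 10 were lower and 4 higher, and 14.2% of all probe sets were apart and lower and 24.3% apart and higher.

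**Figure D1:**
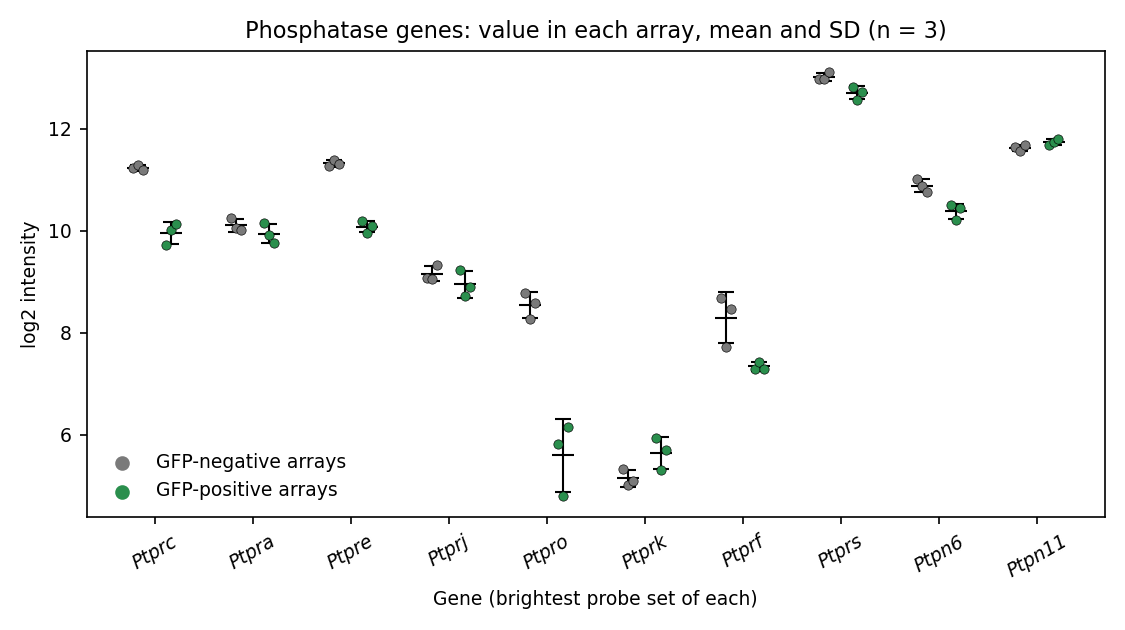
Log2 intensity of the brightest probe set of each of the 10 phosphatase genes in 3 GFP-negative arrays (grey) and 3 GFP-positive arrays (green), with the mean and SD of each group. Ptprc, Ptpre and Ptpro stand clearly lower in all 3 GFP-positive arrays, while the groups overlap for Ptpra, Ptprj, Ptprk and Ptpn11. Heights of different genes are not comparable, since each probe set has its own response.

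Ptprc was lower in GFP-positive cells by both of its probe sets. The brighter probe set, 1422124_a_at, read 11.22, 11.30 and 11.18 in the GFP-negative arrays and 9.72, 10.01 and 10.13 in the GFP-positive arrays. All 3 GFP-positive arrays lay at least 1.05 below the lowest GFP-negative array. The group means were 11.23 ± 0.06 and 9.95 ± 0.21 (SD, n = 3 each), a 2.43-fold difference. The dimmer probe set, 1440165_at, read 8.53, 8.94 and 8.82 against 6.92, 6.25 and 5.91. Here the groups were 1.61 apart, and the means of 8.76 ± 0.22 and 6.36 ± 0.51 differed 5.29-fold. Both probe sets pointed the same way but differed in size, -1.28 and -2.40 on the log2 scale, and what part of the transcript each reports was not examined. CD45 remained well above the dim end of the array in GFP-positive cells by its brighter probe set.

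Ptpra and Ptpre encode closely related receptor phosphatases with short extracellular parts, of which Ptpra is known as an activator of Src family kinases and Ptpre is made in a receptor and a cytosolic form. Ptpre was lower in GFP-positive cells and Ptpra was not called. The brighter Ptpre probe set, 1418540_a_at, read 11.26, 11.40 and 11.31 in GFP-negative and 10.19, 9.96 and 10.09 in GFP-positive arrays. The groups were 1.07 apart, with means of 11.32 ± 0.07 and 10.08 ± 0.12 (SD, n = 3 each), a 2.36-fold difference. The other Ptpre probe set, 1418539_a_at, read 9.87, 9.63 and 9.59 against 8.77, 8.50 and 8.46. Its groups were 0.82 apart and its means, 9.69 ± 0.15 and 8.57 ± 0.17, differed 2.17-fold. The 2 probe sets of Ptpre thus gave similar sizes, -1.24 and -1.12.

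The brighter Ptpra probe set, 1425340_a_at, read 10.25, 10.06 and 10.01 in GFP-negative and 10.15, 9.91 and 9.77 in GFP-positive arrays. The groups overlapped and their means of 10.11 ± 0.13 and 9.94 ± 0.19 differed by -0.16 with an SE of 0.13. The dimmer one, 1447467_at, lay between 5.24 and 5.99 in GFP-negative and between 5.45 and 6.43 in GFP-positive arrays, a difference of 0.30 with an SE of 0.31.

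Ptprj and Ptpro encode receptor phosphatases with fibronectin type III repeats outside the cell and a single catalytic domain inside. Ptprj, also known as CD148, regulates Src family kinases in platelets and macrophages, and Ptpro is best known from kidney podocytes, with a shorter form in blood cells. Ptpro showed the largest difference of the 31 probe sets. Its brighter probe set, 1417676_a_at, read 8.77, 8.27 and 8.59 in GFP-negative arrays and 5.83, 4.80 and 6.16 in GFP-positive arrays. The groups were 2.12 apart, and the means of 8.55 ± 0.25 and 5.59 ± 0.71 (SD, n = 3 each) differed 7.74-fold. The spread was wider in the GFP-positive arrays, where array 2 was lowest. The second probe set, 1425863_a_at, was brighter than only 21.0% of all probe sets and read 4.05, 4.04 and 4.05 against 3.82, 3.78 and 3.78. Its groups did not overlap either, but the difference was -0.26 and it was not called.

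Ptprj was not called by any of its 4 probe sets. The brightest, 1455030_at, read 9.08, 9.06 and 9.32 in GFP-negative and 9.24, 8.72 and 8.89 in GFP-positive arrays. The groups overlapped, with means of 9.15 ± 0.15 and 8.95 ± 0.26 and a difference of -0.20 with an SE of 0.16. The next, 1425588_at, differed by 0.11 and also overlapped. The dim probe sets 1425587_a_at and 1427629_at differed by 0.49 and 0.94. The last of these rests on 1 array, since GFP-positive array 3 read 5.18 while the other 5 arrays lay between 2.79 and 3.29, and the difference was 0.26 without that array.

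Ptprk, a phosphatase that binds itself across cell contacts, was dim and not called in any of its 7 probe sets. The brightest, 1423277_at, was brighter than 43.1% of all probe sets. It read 5.32, 5.02 and 5.09 in GFP-negative and 5.93, 5.31 and 5.69 in GFP-positive arrays. The highest GFP-negative array passed the lowest GFP-positive one, and the difference was 0.50 with an SE of 0.18. The other 6 probe sets of Ptprk ran from -0.06 to 0.47, and the groups overlapped in all 7.

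Ptprf (LAR) and Ptprs (PTP sigma) belong to one subfamily, whose extracellular immunoglobulin-like domains bind heparan sulfate proteoglycans. Neither had a called probe set, and in both the brightest probe set pointed lower while dimmer ones pointed the other way. Ptprf probe set 1420843_at read 8.69, 7.73 and 8.46 in GFP-negative and 7.29, 7.43 and 7.30 in GFP-positive arrays. The groups were 0.30 apart and the means of 8.29 ± 0.50 and 7.34 ± 0.08 (SD, n = 3 each) differed 1.94-fold, with GFP-negative array 2 the lowest of its group. Without GFP-negative array 2 the difference was -1.24 and passed the threshold. The other Ptprf probe sets, 1420841_at and 1420842_at, were brighter than 34.0% and 33.9% of all probe sets and differed by 0.37 and 0.23.

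Ptprs probe set 1426794_at was brighter than 98.4% of all probe sets. It read 12.97, 12.98 and 13.11 in GFP-negative and 12.82, 12.57 and 12.72 in GFP-positive arrays. The groups were apart by 0.15, with means of 13.02 ± 0.08 and 12.70 ± 0.13 and a 1.25-fold difference that was not called. The other 3 probe sets of Ptprs differed by -0.05, 0.68 and 0.29. The 0.68 of 1427688_a_at was raised by GFP-positive array 1, which read 7.10 while the other 2 arrays of the group read 5.72 and 5.90, and the difference was 0.25 without it.

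Of the pair with SH2 domains, Ptpn6 was lower in GFP-positive cells by 1 probe set and Ptpn11 was not called. Ptpn6 probe set 1460188_at read 11.02, 10.88 and 10.77 in GFP-negative and 10.50, 10.22 and 10.44 in GFP-positive arrays. The groups were 0.27 apart and the means of 10.89 ± 0.13 and 10.38 ± 0.15 (SD, n = 3 each) differed 1.42-fold. Its second probe set, 1456694_x_at, of a type that may also bind related transcripts, read 7.72, 7.72 and 7.62 against 7.53, 7.26 and 7.24, a difference of -0.34 that was not called.

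Ptpn11 probe set 1451225_at read 11.63, 11.57 and 11.68 in GFP-negative and 11.68, 11.74 and 11.80 in GFP-positive arrays. The groups overlapped narrowly, and the means of 11.63 ± 0.06 and 11.74 ± 0.06 differed by 0.11 with an SE of 0.09. The other probe sets of Ptpn11, 1421196_at and 1427699_a_at, differed by 0.26 and 0.38. All 3 lay above 0, also after quantile normalization or with array medians subtracted, but the median of all probe sets was itself 0.09.

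**Figure D2:**
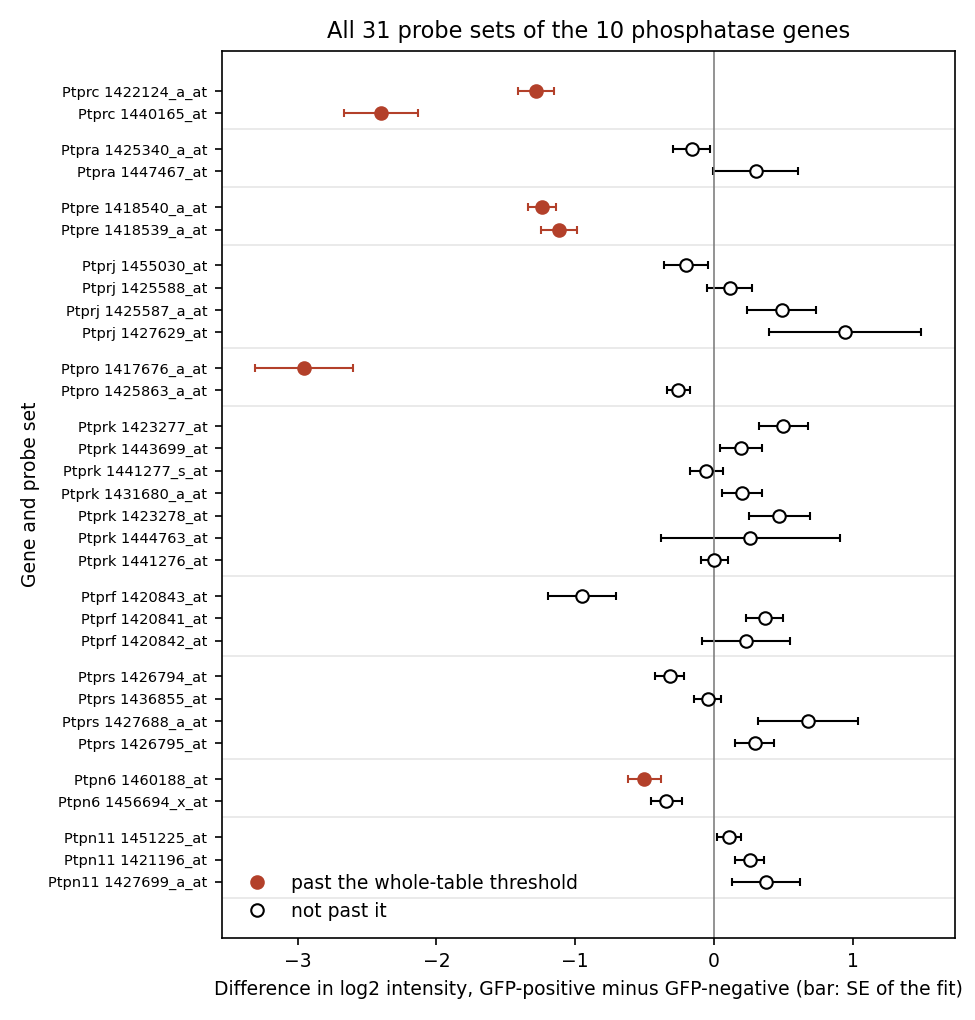
Difference in log2 intensity (GFP-positive minus GFP-negative, bar: SE of the fit) for all 31 probe sets of the 10 genes, filled red where the whole-table threshold was passed. The filled points are those of Ptprc, Ptpre, Ptpro (1417676_a_at) and Ptpn6 (1460188_at), all below 0, while the probe sets of Ptprk cluster between -0.06 and 0.50.

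The calls of Ptprc and Ptpre held in each of the 13 other settings tried, which repeated the fit with other processing or with arrays left out. All of them reuse the arrays on which the genes were chosen, so a call that held is no independent support. Over these settings the difference ran from -1.37 to -1.16 for the brighter Ptprc probe set and from -2.68 to -2.18 for the dimmer one. For Ptpre it ran from -1.30 to -1.16 and from -1.27 to -1.03. The Ptpro call held whichever 1 array was left out, with differences from -3.24 to -2.55. It was lost without the 2 Jchain-high arrays, where the difference was -3.05 and each group had 2 arrays. For Ptpn6 the call went when any single array was omitted, although its difference stayed between -0.56 and -0.42 in those fits, and it also went with array medians subtracted (-0.43) and without the 2 Jchain-high arrays (-0.62).

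**Figure D3:**
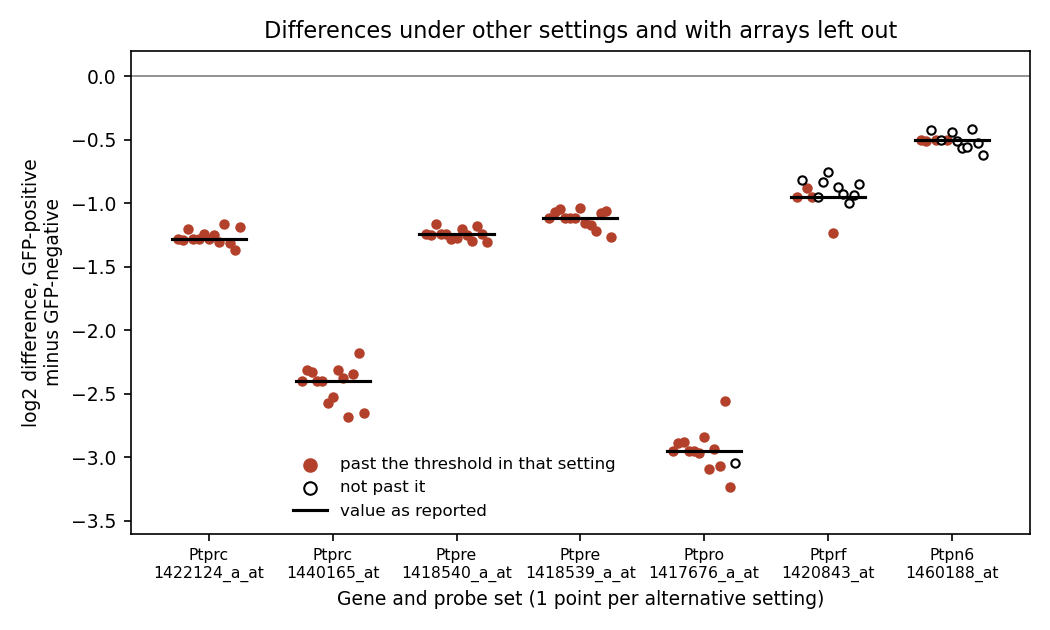
Difference in log2 intensity for the 6 called probe sets and for Ptprf 1420843_at under each of 13 other settings (points, red where the threshold was passed in that setting) beside the value as reported (line). Ptprc and Ptpre points are all red, 1 of 13 Ptpro points is open, and most Ptprf and Ptpn6 points are open. Every point lies below 0, which was fixed in advance where arrays were left out, since the groups do not overlap.

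Markers of cell types moved with the same groups. The summed intensity of 11 granulocyte and monocyte markers ran from 73765 to 79316 in GFP-negative and from 32715 to 41100 in GFP-positive arrays, and 11 of 11 were called lower. For 6 markers of multipotent progenitors the sums were 11148 to 12950 and 3242 to 3904, with 6 of 6 called lower. For 10 erythroid markers they were 29333 to 29518 and 41615 to 45765, with 7 called higher and 0 lower. The part of these and the following marker shifts in the differences of Ptprc, Ptpre, Ptpro and Ptpn6 was not tested, and in RNA from a sorted population fewer cells of a type and less RNA per cell cannot be told apart. Summed B cell markers were also lower, at 1934 to 2415 in GFP-negative and 922 to 1309 in GFP-positive arrays, with 1 of 8 called lower. That 1 was Cd79b, the brightest of the list, from 10.50 to 8.65, and it makes up most of the B cell sum in each GFP-negative array. Of the 8 B cell markers, 6 lay above 0, with a median difference of 0.29. Of 11 T and natural killer cell markers 7 lay above 0, with a median difference of 0.55, while the sum of the 11 was lower, at 7750 to 8012 and 3737 to 5181. By call, 3 were higher and 1 lower. The 3 that rose were Gzmb and Gzma, granzymes of cytotoxic lymphocytes, 15.9-fold and 8.17-fold higher (limma adjusted p = 0.000936 and 0.0124), and the co-receptor chain Cd8b1, 1.43-fold higher (adjusted p = 0.0379). The 1 that fell was Nkg7, a protein of cytotoxic granules and the brightest of the list, from 12.83 to 11.67 (limma adjusted p = 0.0134). Nkg7 makes up most of the T and natural killer cell sum in every array. Gzmb and Gzma kept their calls whichever 1 array was left out, Cd8b1 lost its call in each such fit (highest adjusted p 0.104), and Nkg7 without GFP-negative array 2 or 3 (highest 0.0523) and without the 2 Jchain-high arrays (0.0781). The T cell receptor chains Cd3d, Cd3e and Cd3g were not called and had group means between 4.14 and 5.95. Plasma cell markers summed to 3006 to 4025 and 2248 to 2920, with 0 of 5 called. Macrophage markers summed to 669 to 918 and 962 to 1571, with 1 of 8 called higher, and stromal and endothelial markers to 289 to 319 and 317 to 500, with 1 of 9 called lower. Kit, on which the cells were sorted, differed by -0.25 and was not called.

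Related phosphatases and known partners were then examined from 6 lists, each gene by its brightest probe set. Over all 18193 genes, 18.1% were called, 8.15% higher and 9.92% lower, with a median difference of 0.11. Of 10 other receptor phosphatases measured, 1 was higher and 0 lower by limma (3 and 0 at an unadjusted p under 0.05), with a median of 0.22. The 1 was Ptprb, an endothelial phosphatase named after its values were seen, at a difference of 0.41 (adjusted p = 0.0434). Its call was lost whichever of the 6 arrays was left out, with an adjusted p between 0.0525 and 0.139, leaving 0, and also without the 2 Jchain-high arrays (adjusted p = 0.194). The brightest of the list, Ptpru and Ptprv, differed by -0.20 and 0.41 and were not called.

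Of 14 other non-receptor phosphatases, 2 fell and 2 rose, with a median of 0.07. Ptpn22, which restrains lymphocyte receptor signalling, was 3.11-fold lower, from 9.17 ± 0.17 to 7.53 ± 0.56 (SD, n = 3 each; limma adjusted p = 0.0135). Ptpn18 was 3.05-fold lower, from 12.02 ± 0.15 to 10.42 ± 0.46 (limma adjusted p = 0.00803). Ptpn13, a large phosphatase with PDZ domains, rose 2.49-fold (limma adjusted p = 0.0352) and Ptpn20 1.94-fold (adjusted p = 0.0268). The Ptpn20 probe set was dim, brighter than only 25% of all probe sets, with means of 3.68 and 4.64. Of these 4, Ptpn18 alone kept its call whichever 1 array was left out. Ptpn22 lost its call without GFP-negative array 2 (adjusted p = 0.0523), which left 1 fall, and without the 2 Jchain-high arrays (adjusted p = 0.110). Ptpn13 was called only without GFP-positive array 1 and Ptpn20 only without that array or GFP-negative array 3, so that 0 rises were left without GFP-negative array 2 or without array 2 or 3 of the GFP-positive group. Omitting GFP-negative array 3 left 1, and omitting GFP-negative array 1 gave 1 of another gene.

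Ligands of receptor phosphatases, chiefly heparan sulfate proteoglycans that can bind Ptprs and Ptprf, moved in both directions: 3 of 16 fell and 2 rose, with a median of 0.03. The glypicans, which are anchored to the cell surface by lipid, gave 4 of the 5 calls. Gpc1 was 3.22-fold lower, from 11.80 ± 0.14 to 10.12 ± 0.15 (SD, n = 3 each; limma adjusted p = 0.00118). Gpc3 was 2.58-fold lower (adjusted p = 0.00392). Gpc4 rose 3.04-fold, from 9.88 ± 0.31 to 11.49 ± 0.21 (limma adjusted p = 0.00378). These 3 kept their calls whichever 1 array was left out, and without the 2 Jchain-high arrays. Gpc6 rose 1.43-fold (adjusted p = 0.0384) and the galectin Lgals1, named after its values were seen, differed by -0.42 (adjusted p = 0.0316). Both were called with 1 array left out only where that array was GFP-positive array 1, so that 1 rise was left without any of the other 5, and both lost their calls without the 2 Jchain-high arrays (adjusted p = 0.131 and 0.133).

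Inhibitory receptors, many of whose phosphorylated tails can recruit Ptpn6 or Ptpn11, were mostly lower. Which of these phosphatases, if any, each listed receptor recruits was not examined. Of 19 measured, 11 fell and 1 rose, with a median of -0.77. Btla was 11.6-fold lower, Milr1, a receptor of mast cells, 6.20-fold, and the Fc receptor Fcgr2b 4.95-fold (limma adjusted p = 0.00126, 0.000936 and 0.00127). Milr1 fell from 9.50 ± 0.12 to 6.86 ± 0.22 (SD, n = 3 each). Pdcd1, the PD-1 receptor of lymphocytes, rose 4.48-fold, from 4.98 ± 0.51 to 7.15 ± 0.53 (limma adjusted p = 0.0106), and lost its call without the 2 Jchain-high arrays (adjusted p = 0.0869). The number that fell was 7 without GFP-positive array 3. Several of these receptors are themselves markers of granulocytes, monocytes or lymphocytes. Summed granulocyte and monocyte markers were lower, as given above. The lymphocyte sums were lower too, but 6 of 8 B cell and 7 of 11 T and natural killer cell markers lay above 0. What part these marker shifts have in the differences of the receptors was not tested.

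Adaptors and activators of Ras, through which Ptpn11 acts, changed in both directions: 6 of 17 fell and 3 rose, with a median of 0.03. The 3 Gab genes, docking proteins that bind Ptpn11, did not move together. Gab1 rose 1.97-fold, from 9.89 ± 0.03 to 10.86 ± 0.07 (SD, n = 3 each; limma adjusted p = 0.00169). Gab3 rose 1.91-fold (adjusted p = 0.0192). Gab2 was 2.82-fold lower (adjusted p = 0.0348). Sh2b3, an adaptor that restrains cytokine receptors, was 2.02-fold lower (adjusted p = 0.00307). Shc1, an adaptor chosen for mention once its values were known, had a log2 rise of 0.55 (adjusted p = 0.0271). Gab1 and Sh2b3 kept their calls whichever 1 array was left out. Gab3 lost its call without GFP-negative array 2 or GFP-positive array 2 (adjusted p up to 0.0565), and Gab2 passed with an array omitted only where that was GFP-positive array 1 (highest adjusted p 0.111). Shc1 did so only where it was GFP-negative array 1 (highest adjusted p 0.0951). Without the 2 Jchain-high arrays Gab1 and Sh2b3 alone of the list were called, and Gab2, Gab3 and Shc1 stood at an adjusted p of 0.0645, 0.0785 and 0.173. The count of rises was 1 without GFP-negative array 2, and that of falls was 2 without GFP-negative array 2 or 3 and 3 without GFP-positive array 2 or 3.

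Src family kinases and their regulators, on which Ptprc, Ptpra and Ptprj act, gave 4 falls and 0 rises among 9 measured (4 and 0 at an unadjusted p under 0.05 in limma), with a median of -0.74. Only 1 of the 4, Fyn, is a kinase, at 1.67-fold lower (adjusted p = 0.0364). Skap2, an adaptor of Src kinases, was 2.43-fold lower, from 10.97 ± 0.04 to 9.69 ± 0.27 (SD, n = 3 each; limma adjusted p = 0.00374). Ptprcap, a protein that associates with CD45, was 1.86-fold lower (adjusted p = 0.00816), and Pag1, which brings the inhibitory kinase Csk to the membrane, 1.70-fold (adjusted p = 0.00412). Skap2, Ptprcap and Pag1 kept their calls whichever 1 array was left out, and Fyn passed with an array omitted only where that was GFP-positive array 1 (highest adjusted p 0.110). Without the 2 Jchain-high arrays 1 call was left, that of Skap2.

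**Figure D4:**
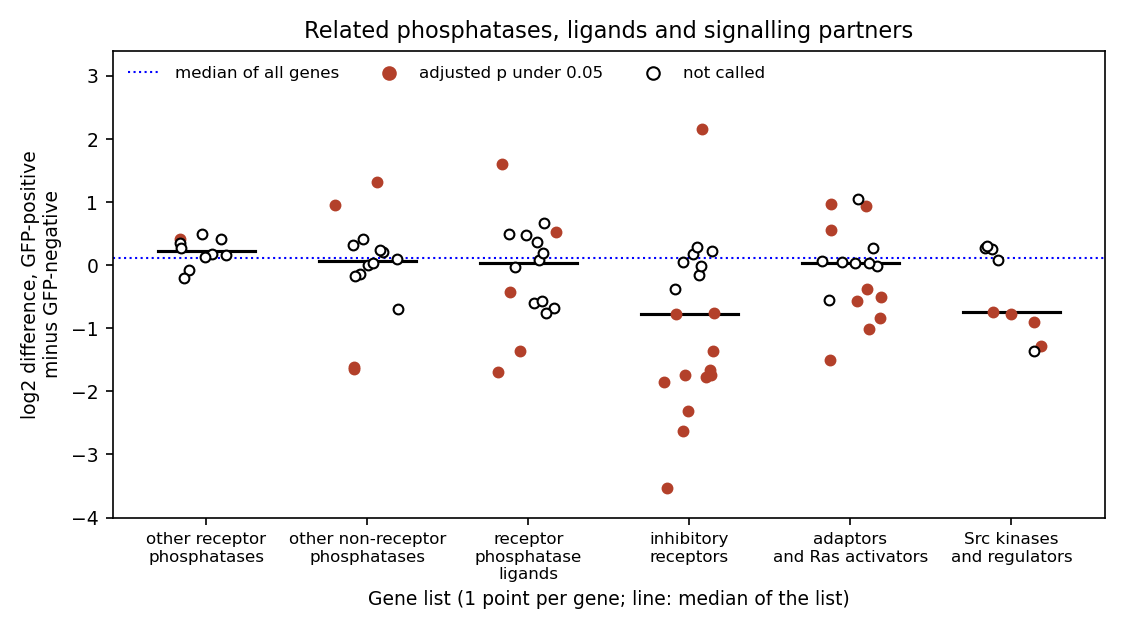
Difference in log2 intensity (GFP-positive minus GFP-negative) for each measured gene of 6 lists of related phosphatases, ligands and signalling partners; red points passed an adjusted p of 0.05, lines are list medians and the dotted line is the median of all genes. Inhibitory receptors have 11 red points below 0 and 1 above, and the glypicans among the ligands lie on both sides of 0.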

How the data were processed

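The authors deposited a linear intensity for each probe set, for which the submitters' processing notes name RMA. Its version and the step back from log values are not stated in the labels. Intensities ran from 4.27 to 24551. They were taken to log2 without further normalization, 64 array controls were left out and 45037 probe sets were tested.

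Platform annotation gave 1 gene for 34945 of them, several for 932 and none for 9160. Of the 34945, 34741 were found by gene ID, under an unchanged symbol, in the RefSeq table of GRCm38.p6. That table was used for names, and promoters were read from RefSeq windows of the same assembly. A gene in a list was its probe set of highest mean.

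The test was limma 3.58.1 under R 4.3.3 (a linear model with moderated statistics, 2-sided and without covariates, Benjamini-Hochberg over all 45037 probe sets, threshold 0.05), tested on simulated data. Promoters and figures used Python 3.11.15 and matplotlib 3.10.9. The labels do not say whether the same replicate numbers pair arrays of the 2 groups, and the arrays were treated as unpaired. Named list genes were up to 4 called genes of largest difference, or the 2 brightest where fewer than 2 were called. The genes, lists, tests and rule were chosen with earlier results of these data known. Of the listed partners, 3 other receptor phosphatases, 1 non-receptor phosphatase, 3 inhibitory receptors, 3 adaptors and 3 Src kinases had no 1-gene probe set here and were not analysed.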

Additional observations from a re-analysis of the deposited data

How the results depend on the processing

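No called member probe set changed sign in any of the 13 other settings. The groups of these probe sets did not overlap, so leaving arrays out could not change a sign. The intensity trend, the brighter probe sets and the block leave the difference itself unchanged. Ptprf 1420843_at, not called as reported, was called in 4 of the 13. Omitting the 2 Jchain-high arrays was a choice made with the data seen; the causes of the changes were not tested. Over the fits that leave out 1 array each, all probe sets gave 1212 to 2243 higher and 2192 to 3098 lower calls, with 1257 and 2300 without GFP-negative array 2 and 1212 and 2192 without GFP-negative array 3, and members 5 to 6 lower and 0 higher. Other receptor phosphatases gave 0 higher, non-receptor ones 0 to 2 higher and 1 to 3 lower, ligands 1 to 2 higher and 2 to 3 lower, inhibitory receptors 7 to 10 lower and 1 higher, adaptors 1 to 3 higher and 2 to 4 lower, and Src kinases and regulators 3 to 4 lower.

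With array medians subtracted 5218 probe sets were called higher, and 2 other receptor phosphatases. With an intensity trend and robust priors 0 other receptor phosphatases and 1 ligand were called higher. Repeated quantile normalization and the restriction to brighter probe sets each left 0 other receptor phosphatases higher, and array quality weights gave 2 of these higher and 5 ligands lower. With the probe set of highest variance 1 ligand was higher and 3 adaptors lower. Without the 2 Jchain-high arrays 681 probe sets were higher and 1652 lower, members had 4 lower calls, and the lists kept 0 other receptor phosphatases higher, 1 non-receptor phosphatase lower, 1 ligand higher, 0 inhibitory receptors higher, 1 adaptor higher, 1 adaptor lower and 1 Src regulator lower.

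With the replicate number as a block, 5 member probe sets were lower, 1969 of all probe sets were higher and 2872 lower, 0 other receptor phosphatases and 0 inhibitory receptors were higher, and 1 non-receptor phosphatase was lower. Of the genes named, Ptpn6, Ptpn22, Pdcd1, Gab3, Fyn, Ptprb, Lgals1 and Cblb were not called under the block. Ptprb was also not called with an intensity trend or repeated quantile normalization, and Gpc6 not with an intensity trend. Deviations of same-numbered arrays correlated at 0.023, 0.055 and 0.019, and each array correlated best with its own number. The labels do not say what equal numbers share, and correlations this low cannot decide whether the arrays are paired. Signal limits the dim probe sets most: no detection calls were used, and a fold is no bound where 1 group is dim.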

Other observations

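Other genes of the lists, named after their values were seen, add to the inhibitory receptors and adaptors described above. Among inhibitory receptors, Pecam1, Cd300a, Siglece, Sirpa and Cd72 were lower, at differences of -1.75, -1.85, -1.77, -1.74 and -1.67 on the log2 scale (limma adjusted p from 0.00108 to 0.0191), whereas Cd22, a B cell receptor, differed by -0.01 and was not called. Cbl and Cblb, ubiquitin ligases that act on tyrosine kinases, were lower, at -0.56 and -0.51 (adjusted p = 0.0134 and 0.0286). Without the 2 Jchain-high arrays these 5 receptors kept their calls, while Cbl and Cblb did not (adjusted p = 0.114 and 0.168). Whichever 1 array was left out, Pecam1, Cd300a, Sirpa and Cd72 stayed called. With 1 array left out, Siglece passed only where that was GFP-negative array 3 or GFP-positive array 1 (highest adjusted p 0.0681), Cbl in all cases but GFP-negative arrays 2 and 3 (highest 0.0573), and Cblb only without GFP-negative array 1 (highest 0.101). The kinase Yes1 differed by -1.35 and Irs2, an insulin receptor substrate, by 1.05, and neither was called. Csk, which opposes CD45 by adding the inhibitory phosphate to Src kinases, differed by 0.08 and was not called.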
